A study of Mus musculus with 24 samples.

Results

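Calcium buffers and store-operated calcium entry were followed through 10 genes: Casq1, Casq2, Hrc, Asph, Srl, Pvalb, Stim1, Stim2, Orai1, and Sypl2. They were found by gene name in the deposited tables, where each name occurred once among 56941 genes, and all 10 passed the filter on low counts. The tissues were 2D muscle sheets differentiated from C2C12 myoblasts, a mouse line that fuses into multinucleated fibers in culture. All 4 groups, controls included, carried the same ChR2::tdTomato genotype, a blue light-gated cation channel joined to a red fluorescent protein, and received medium with horse serum and IGF-1 during differentiation. Of these groups, 3 were stimulated with light for 30 min per day at 1, 4, or 10 Hz and the control group received no stimulation, with 6 libraries per condition and 24 in total. As a model, the sheets came from 1 immortalized line without nerve supply. Spontaneous twitching was noted by the authors in every condition, so the control tissues also contracted.

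Muscle contraction starts when calcium leaves the sarcoplasmic reticulum (SR) through the ryanodine receptor and ends when a pump returns it. Inside the SR, calsequestrin (Casq1 in fast skeletal fibers, Casq2 in heart, slow, and developing fibers) binds calcium loosely and at high capacity beside the release channel. When the store runs low, Stim proteins in the SR membrane sense the loss and open Orai channels in the cell membrane, a route called store-operated calcium entry, while parvalbumin (Pvalb) binds calcium in the cytosol of fast fibers.

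Promoter sequences are shown for the genes on which the comparisons turned and whose stretch before the start site could be printed. They were Stim1 and Stim2, the pair of store sensors that moved apart, and Hrc, an SR gene that rose at 1 and 4 Hz. The last was Pvalb, the only gene of the 10 called between 4 and 1 Hz. Each is the part of the RefSeq promoter window (GRCm38.p6 table, 250 bases before to 50 after a start site) that lies upstream of the GENCODE canonical start site, placed on GRCm39 by its only exact match and written 5′ to 3′ on the gene's strand. Capitals mark CANNTG, the E-box core read by myogenic factors, and GGGCGG, a GC box, on either strand (as CCGCCC on the other).
Stim1 (chr7:101916776-101916978, plus strand): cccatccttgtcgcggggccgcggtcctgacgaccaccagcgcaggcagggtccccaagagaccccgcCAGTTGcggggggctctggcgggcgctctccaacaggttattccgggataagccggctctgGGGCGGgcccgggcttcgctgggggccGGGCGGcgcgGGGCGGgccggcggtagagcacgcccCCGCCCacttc
Stim2 (chr5:54155615-54155840, plus strand): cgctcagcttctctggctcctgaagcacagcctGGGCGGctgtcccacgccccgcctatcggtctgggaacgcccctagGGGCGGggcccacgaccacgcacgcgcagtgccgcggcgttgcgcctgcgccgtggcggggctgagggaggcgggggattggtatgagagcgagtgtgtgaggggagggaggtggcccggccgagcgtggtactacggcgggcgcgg
Hrc (chr7:44984443-44984680, plus strand): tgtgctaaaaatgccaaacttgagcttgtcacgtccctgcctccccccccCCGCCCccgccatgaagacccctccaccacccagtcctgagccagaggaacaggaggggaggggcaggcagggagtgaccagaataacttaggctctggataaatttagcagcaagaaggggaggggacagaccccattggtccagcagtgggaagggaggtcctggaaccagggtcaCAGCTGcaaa
Pvalb (chr15:78090603-78090850, minus strand): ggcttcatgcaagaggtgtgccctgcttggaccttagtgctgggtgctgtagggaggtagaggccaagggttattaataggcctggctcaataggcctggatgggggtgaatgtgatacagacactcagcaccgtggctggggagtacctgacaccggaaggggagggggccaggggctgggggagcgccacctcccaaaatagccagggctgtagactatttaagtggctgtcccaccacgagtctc
RefSeq windows were found for 8 of the 10 genes, and none for Asph and Srl. Over the full windows of 300 bases on both strands, GGGCGG occurred 8 times in the Stim1 window, 3 times in each of the Stim2 and Orai1 windows, once in Casq1, Hrc, and Sypl2, and not in Casq2 or either Pvalb window, against 35.9% of 32544 mouse promoter windows that held at least 1. The CANNTG form with GC in the middle was present in the Casq1, Hrc, Orai1, and Sypl2 windows and in 16.4% of all windows, while CANNTG of any form occurred in 72.3% of all windows and was missing from the Stim2 window and 1 of the 2 Pvalb windows. Neither TATAAA, found in 13.6% of all windows, nor the MEF2 core, found in 3.7%, occurred in any of the 9 windows. The Casq1 and Casq2 windows lay wholly downstream of the canonical start site, so their matches are not upstream of it. Of the 8 Stim1 and 3 Stim2 GGGCGG matches, 4 and 2 were upstream of that site. The Sypl2 GGGCGG match was not, at 104 bases before a window start site set 112 bases past the canonical one. These are matches of letters and no binding was measured.

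Total counts ranged from 4.09 to 15.2 M (mega) per library, and counts per M (CPM) below are TMM-scaled. Skeletal muscle identity held in every library: Des did not fall below 1410 CPM, Acta1 below 2391 CPM, or Myog below 242 CPM. Of 6 heart markers, Nppa had no count in any library, Ryr2 stayed at or below 0.410 CPM and Tnni3 at or below 2.47 CPM, Nppb reached 5.65 CPM and Pln 6.15 CPM, and Myh6 spanned 16.9 to 67.7 CPM. Myh6 and Pln were called higher at 1 and 4 Hz, and their part in the results below was not tested. Of 8 proliferation markers, Mki67 stayed at or below 5.23 CPM, while Cdk1 (9.48 to 18.2 CPM) and Top2a (4.51 to 16.4 CPM) were the highest. The share of 27 listed small RNAs without poly(A) tails differed between conditions, at 98.2 to 168 per M estimated counts in control, 15.03 to 70.6 at 1 Hz, 18.1 to 50.8 at 4 Hz, and 38.3 to 273 at 10 Hz. Its values are set beside the results further on, because the labels state that samples of low input were ribodepleted instead of poly(A) selected without saying which. Listed ribosomal RNA was at 8548 to 14397 per M estimated counts in control, 1230 to 6253 at 1 Hz, 1694 to 5909 at 4 Hz, and 3545 to 22410 at 10 Hz.

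Per transcript length, Casq2 was the most abundant of the 10 genes in every condition. In control tissues it reached 411 ± 44.4 TPM (transcripts per M transcripts, SD, n = 6), followed by Srl, which encodes the SR glycoprotein sarcalumenin, at 131 ± 9.48 TPM (SD, n = 6). Hrc (72.9 ± 12.4 TPM), Casq1 (72.6 ± 6.46 TPM), and Asph (68.1 ± 6.69 TPM, all SD, n = 6) came next, and their ranges overlapped. The store-operated entry genes were lower, with Stim2 at 36.4 ± 10.3 TPM, Stim1 at 25.9 ± 0.771 TPM, and Orai1 at 20.4 ± 3.56 TPM (SD, n = 6), each overlapping its neighbor. Pvalb stood at 16.0 ± 4.40 TPM, overlapping Orai1, and Sypl2, which encodes the triad membrane protein mitsugumin 29, at 0.310 ± 0.144 TPM (SD, n = 6). Casq2 therefore stood above Casq1 in these cultures, with a Casq1 to Casq2 TPM ratio between 0.153 and 0.201 in the 6 control libraries.

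Both calsequestrins rose at 1 and 4 Hz, and Casq2 was the only gene of the 10 that also passed both thresholds at 10 Hz. Casq2 (chr3:101993234-102056307, plus strand, 11 exons) spanned 532 to 660 CPM in control with a median of 561 CPM. It spanned 925 to 1156 CPM at 1 Hz with a median of 1063 CPM, and 1147 to 1402 CPM at 4 Hz with a median of 1205 CPM. Every library of both groups was above every control library. The log2 fold change was 0.87 at 1 Hz (SE 0.097, edgeR quasi-likelihood test, Benjamini-Hochberg (BH) adjusted p = 1.23e-06) and 1.11 at 4 Hz (SE 0.097, edgeR adjusted p = 2.53e-08), or 1.82-fold and 2.16-fold. At 10 Hz, Casq2 spanned 715 to 1117 CPM with a median of 743 CPM, again above all controls, and the log2 fold change was 0.54 (SE 0.096, edgeR adjusted p = 0.00180). That call rested on 10 Hz replicate 6, the highest of its group, since without it the log2 fold change was 0.43 (edgeR adjusted p = 0.00393), under the threshold of 0.5. In this report a gene is called when its adjusted p is below 0.05 and its absolute log2 fold change above 0.5.

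Casq1 (chr1:172037459-172049328, minus strand, 11 exons) had a control range of 73.8 to 93.3 CPM (median 87.2 CPM). At 1 Hz it lay between 125 and 198 CPM (median 163 CPM) and at 4 Hz between 147 and 250 CPM (median 172 CPM), with no overlap with control in either case. Its log2 fold change of 0.91 at 1 Hz (SE 0.15, edgeR adjusted p = 4.64e-05) and 1.15 at 4 Hz (SE 0.15, edgeR adjusted p = 1.66e-06) had 95% intervals that overlapped those of Casq2. The 10 Hz libraries, from 73.0 to 128 CPM with a median of 105 CPM, fell on both sides of the control range with 4 above and 1 below it, and the log2 fold change of 0.27 did not pass (95% interval -0.031 to 0.56, edgeR adjusted p = 0.304).

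**Figure D1:**
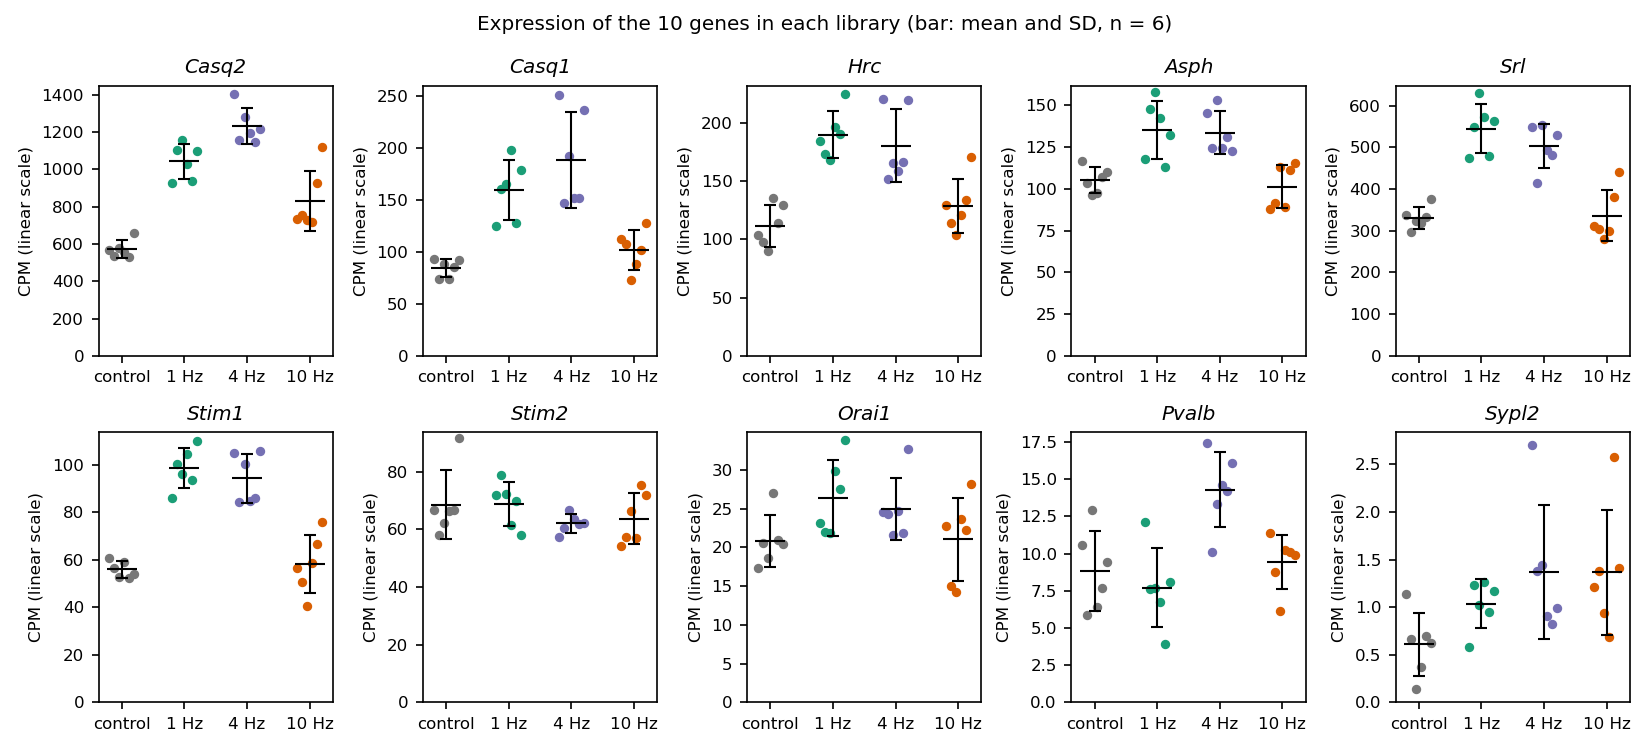
CPM (linear axis from 0) of the 10 genes in each of 24 libraries, grouped as control, 1 Hz, 4 Hz, and 10 Hz, with points for libraries and bars for the mean and SD of 6 libraries. For Casq2, Casq1, Hrc, Srl, and Stim1 all 1 Hz and 4 Hz points lie above all control points, while Stim2 lies at 54.1 to 91.6 CPM throughout and Pvalb is highest at 4 Hz.

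The ratio of the calsequestrins did not pass the adjusted p threshold between control and 1 or 4 Hz, while 10 Hz stood below control. With a pseudocount of 0.1 TPM, the log2 Casq1 to Casq2 TPM ratio averaged -2.50 ± 0.15 in control, -2.63 ± 0.19 at 1 Hz, -2.70 ± 0.20 at 4 Hz, and -2.98 ± 0.22 at 10 Hz (SD, n = 6). All 6 libraries at 10 Hz lay below all 6 controls, and the difference of -0.48 had a 2-sided exact permutation p of 0.00216, the smallest that 6 against 6 can give, and an adjusted p = 0.00974 (exact permutation, BH over 3 measures and 6 pairs of conditions). From CPM in place of TPM the difference was -0.27 (exact permutation, adjusted p = 0.0602), so its size depended on how the authors' length scaling entered. For 10 Hz against 1 Hz it was -0.35 (exact permutation, adjusted p = 0.0303), a result that was lost without any of 7 single libraries (1 Hz replicates 1, 2, 4, and 6 and 10 Hz replicates 3, 4, and 5), where it ranged from -0.35 to -0.28 with adjusted p from 0.0519 to 0.0649.

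Among the other SR genes, Hrc and Srl followed the calsequestrins and Asph moved less. Hrc (chr7:44984681-44988401, plus strand, 6 exons) encodes a histidine-rich calcium-binding protein of the SR lumen. Its control libraries spanned 90.3 to 135 CPM (median 108 CPM), those at 1 Hz 168 to 225 CPM (median 187 CPM), and those at 4 Hz 152 to 221 CPM (median 166 CPM). Both stimulated groups stood wholly above control, with log2 fold changes of 0.77 (SE 0.12, edgeR adjusted p = 4.44e-05) and 0.69 (SE 0.12, edgeR adjusted p = 8.19e-05). At 10 Hz, Hrc overlapped control at 104 to 171 CPM (median 125 CPM) and its log2 fold change was 0.21 (edgeR adjusted p = 0.346).

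Srl (chr16:4294124-4359680, minus strand, 7 exons) gives rise to sarcalumenin and a shorter glycoprotein, which gene-level counts join. Control libraries held 297 to 376 CPM (median 327 CPM), against 474 to 629 CPM at 1 Hz (median 556 CPM) and 414 to 554 CPM at 4 Hz (median 511 CPM). Neither stimulated group overlapped control, and the log2 fold changes were 0.72 at 1 Hz (SE 0.10, edgeR adjusted p = 1.15e-05) and 0.61 at 4 Hz (SE 0.10, edgeR adjusted p = 4.13e-05). On the log2(TPM + 1) scale the 4 Hz value was 0.41 (limma adjusted p = 0.00115), under the fold threshold. At 10 Hz, Srl covered 280 to 442 CPM (median 309 CPM) around the control range, with a log2 fold change of 0.026 (95% interval -0.18 to 0.23).

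Asph (chr4:9448069-9669357, minus strand, 24 exons in the canonical transcript) encodes an aspartyl hydroxylase of the endoplasmic reticulum and, through alternative transcripts, junctin, which ties calsequestrin to the ryanodine receptor. The tables hold 1 value per gene, so junctin was not measured on its own, and 2305 of the 18540 exonic bases of Asph overlapped Clvs1 on the other strand, which had at most 16 counts in a library. Asph libraries lay at 96.3 to 117 CPM in control (median 105 CPM), 113 to 158 CPM at 1 Hz (median 137 CPM), 122 to 153 CPM at 4 Hz (median 128 CPM), and 88.1 to 115 CPM at 10 Hz (median 101 CPM). Differences of 0.37 at 1 Hz (SE 0.092, edgeR adjusted p = 0.00317) and 0.34 at 4 Hz (SE 0.092, edgeR adjusted p = 0.00415) passed the adjusted p but were under the fold threshold, so Asph was not called. At 1 Hz 5 of 6 libraries lay above all controls, and at 4 Hz all 6 did.

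The TPM of Casq1, Casq2, Hrc, Asph, and Srl were summed as a measure of SR calcium-binding transcripts per length. The sum was 755 ± 66.9 TPM in control, 1341 ± 102 TPM at 1 Hz, 1406 ± 144 TPM at 4 Hz, and 989 ± 146 TPM at 10 Hz (SD, n = 6). On the log2 scale it exceeded control by 0.83 at 1 Hz and by 0.89 at 4 Hz, with no overlap (exact permutation, adjusted p = 0.00974 for each). At 10 Hz it exceeded control by 0.38 (exact permutation, adjusted p = 0.0130), and 5 of 6 libraries were above all controls. Casq2 made up most of every sum, so the sum largely repeats the Casq2 values.

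**Figure D2:**
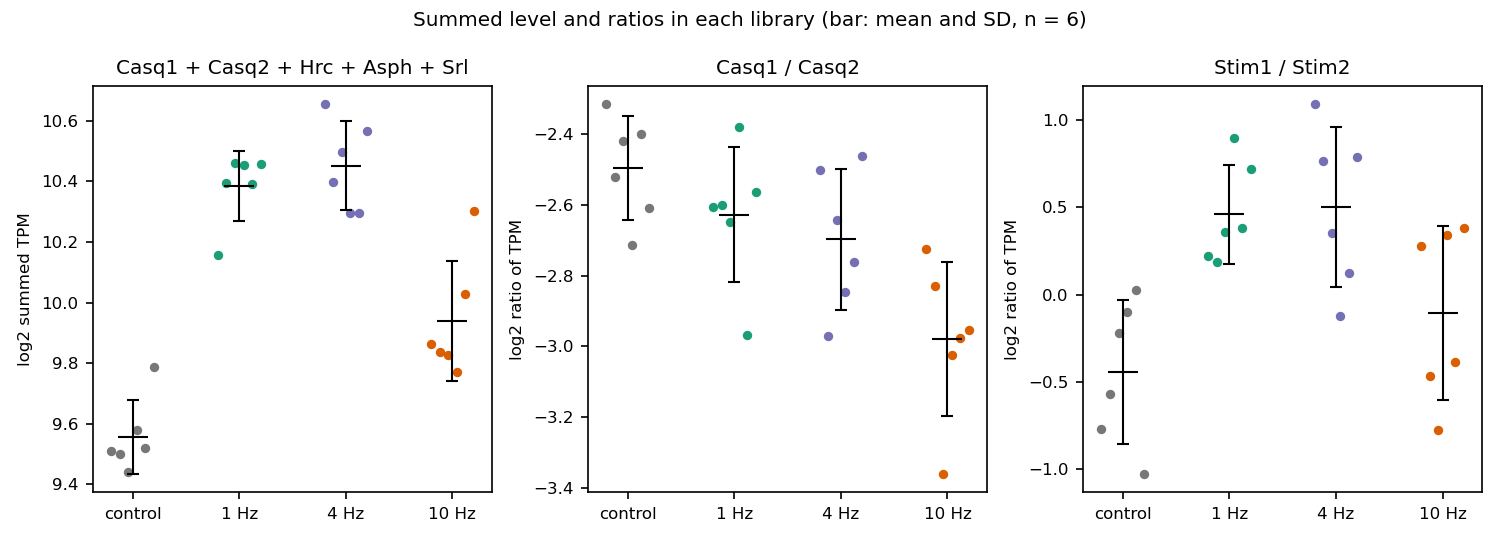
Log2 summed TPM of the 5 SR genes, log2 Casq1 to Casq2 TPM ratio, and log2 Stim1 to Stim2 TPM ratio in each library (points), with the mean and SD of 6 libraries (bars); the axes are log2 and do not start at 0. The sums at 1 and 4 Hz clear the control range, the Casq1 to Casq2 ratio is lowest at 10 Hz with a mean of -2.98, and the Stim1 to Stim2 ratio is highest at 1 and 4 Hz with means of 0.46 and 0.50.

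The store sensors parted: Stim1 rose at 1 and 4 Hz, while Stim2 and the channel gene Orai1 passed no threshold in any of the 6 comparisons. Stim1 (chr7:101916979-102086526, plus strand, 12 exons) had control values within 52.3 to 60.6 CPM (median 55.3 CPM). It reached 86.1 to 110 CPM at 1 Hz (median 98.1 CPM) and 84.4 to 106 CPM at 4 Hz (median 93.1 CPM), both clear of the control range. The log2 fold changes were 0.82 (SE 0.11, edgeR adjusted p = 6.44e-06) and 0.75 (SE 0.11, edgeR adjusted p = 7.14e-06). At 10 Hz the libraries spread from 40.7 to 76.1 CPM (median 57.5 CPM), with 2 below and 2 above all controls, and the log2 fold change was 0.053 (95% interval -0.17 to 0.27). Stim1 also has a longer muscle splice form, which gene-level counts do not separate.

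Stim2 (chr5:54155778-54278399, plus strand, 12 exons), the sensor that responds to smaller losses of store calcium, had medians of 66.5 CPM in control, 70.9 CPM at 1 Hz, 61.9 CPM at 4 Hz, and 61.9 CPM at 10 Hz. Its full range of 58.0 to 91.6 CPM in control covered all 1 Hz libraries (58.1 to 78.7 CPM). Of the 4 Hz libraries (57.3 to 66.8 CPM) 1 of 6 lay below all controls, and of the 10 Hz libraries (54.1 to 75.3 CPM) 3 of 6 did. The 95% interval of the log2 fold change was -0.20 to 0.21 at 1 Hz and -0.35 to 0.063 at 4 Hz, so a rise of the size of Stim1 lay outside both. Orai1 (chr5:123153043-123168535, plus strand, 2 exons) encodes the pore of the store-operated channel and spanned 17.4 to 27.1 CPM in control (median 20.6 CPM) and 21.9 to 33.9 CPM at 1 Hz (median 25.3 CPM). It spanned 21.6 to 32.7 CPM at 4 Hz (median 24.5 CPM) and 14.3 to 28.2 CPM at 10 Hz (median 22.5 CPM), overlapping control in all cases. The log2 fold change of Orai1 was 0.34 at 1 Hz (95% interval 0.023 to 0.66, edgeR adjusted p = 0.0877) and 0.26 at 4 Hz (95% interval -0.056 to 0.57, edgeR adjusted p = 0.184), so a rise above the fold threshold lay inside both intervals.

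The log2 Stim1 to Stim2 TPM ratio averaged -0.44 ± 0.41 in control, 0.46 ± 0.28 at 1 Hz, 0.50 ± 0.46 at 4 Hz, and -0.10 ± 0.50 at 10 Hz (SD, n = 6). On the linear scale Stim1 went from 0.491 to 1.02 times Stim2 in control to 1.14 to 1.86 times at 1 Hz. The difference from control was 0.90 at 1 Hz, without overlap (exact permutation, adjusted p = 0.00974), and 0.94 at 4 Hz, with 5 of 6 libraries above all controls (exact permutation, adjusted p = 0.0146). At 10 Hz it was 0.34 (exact permutation, adjusted p = 0.270). The drop from 4 to 10 Hz of -0.60 missed the threshold in TPM (exact permutation, adjusted p = 0.0815) and passed it in CPM at -0.75 (exact permutation, adjusted p = 0.00557).

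Pvalb and Sypl2 behaved differently from the SR genes, and both rested on few counts. Pvalb (chr15:78075314-78091149, minus strand, 4 exons) had 29 to 163 counts per library. It covered 5.87 to 12.9 CPM in control (median 8.54 CPM) and 3.93 to 12.1 CPM at 1 Hz (median 7.67 CPM), where 1 of 6 libraries lay below all controls. At 4 Hz it rose to 10.1 to 17.5 CPM (median 14.4 CPM), with 5 of 6 libraries above all controls. The log2 fold change at 4 Hz was 0.70 against control (SE 0.20, edgeR adjusted p = 0.00849) and 0.90 against 1 Hz (SE 0.20, edgeR adjusted p = 0.00473). The ranges at 4 and 1 Hz overlapped, with 5 of 6 libraries at 4 Hz above all those at 1 Hz. At 10 Hz, Pvalb covered 6.15 to 11.4 CPM (median 10.0 CPM), within the control range, with a log2 fold change of 0.098 (95% interval -0.33 to 0.53). The decrease from 4 to 10 Hz of -0.60 (edgeR adjusted p = 0.0295) lost its call without 4 Hz replicate 1 (-0.55, edgeR adjusted p = 0.0629), 4 Hz replicate 6 (-0.58, edgeR adjusted p = 0.0536), 10 Hz replicate 2 (-0.58, edgeR adjusted p = 0.0589), or 10 Hz replicate 3 (-0.50, edgeR adjusted p = 0.0819).

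Sypl2 (chr3:108118788-108134027, minus strand, 6 exons) had only 1 to 6 counts per control library and at most 20 in any library. Its libraries held 0.145 to 1.14 CPM in control, 0.578 to 1.27 CPM at 1 Hz, 0.820 to 2.71 CPM at 4 Hz, and 0.683 to 2.58 CPM at 10 Hz, and every stimulated group overlapped control. The log2 fold change of 0.83 at 1 Hz was not called (95% interval -0.022 to 1.68, edgeR adjusted p = 0.123). At 4 Hz the log2 fold change of 1.20 was called (SE 0.40, edgeR adjusted p = 0.0184). The call was lost without control replicate 3, the lowest control (0.97, edgeR adjusted p = 0.0559), and without 4 Hz replicate 1, the highest of its group (0.91, edgeR adjusted p = 0.0675). At 10 Hz a log2 fold change of 1.17 was not called (95% interval 0.35 to 1.99, edgeR adjusted p = 0.0862). Its highest counts were 15 at 1 Hz, 20 at 4 Hz, and 15 at 10 Hz, against 6 in control.

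In counts, 5 of the 10 genes were called higher and 0 lower at 1 Hz against control, where 9.34% of 13318 tested genes were called higher and 8.99% lower. At 4 Hz 7 were higher and 0 lower, against 10.5% of all genes higher and 9.61% lower. At 10 Hz 1 was higher and 0 lower, against 1.24% of all genes higher and 0.623% lower. At 1 Hz 5 genes (Casq1, Casq2, Hrc, Srl, and Stim1) had all 6 libraries above all controls, against 7.22% of all genes. At 4 Hz 6 genes did so, Asph in addition to these 5, against 8.66% of all genes, and at 10 Hz only Casq2 did, against 1.28%. The median log2 fold change of the 10 genes was 0.74 at 1 Hz, 0.70 at 4 Hz, and 0.076 at 10 Hz, against -0.0072, -0.014, and -0.0064 over all tested genes. The 3 comparisons share the same 6 control libraries and are not independent.

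**Figure D3:**
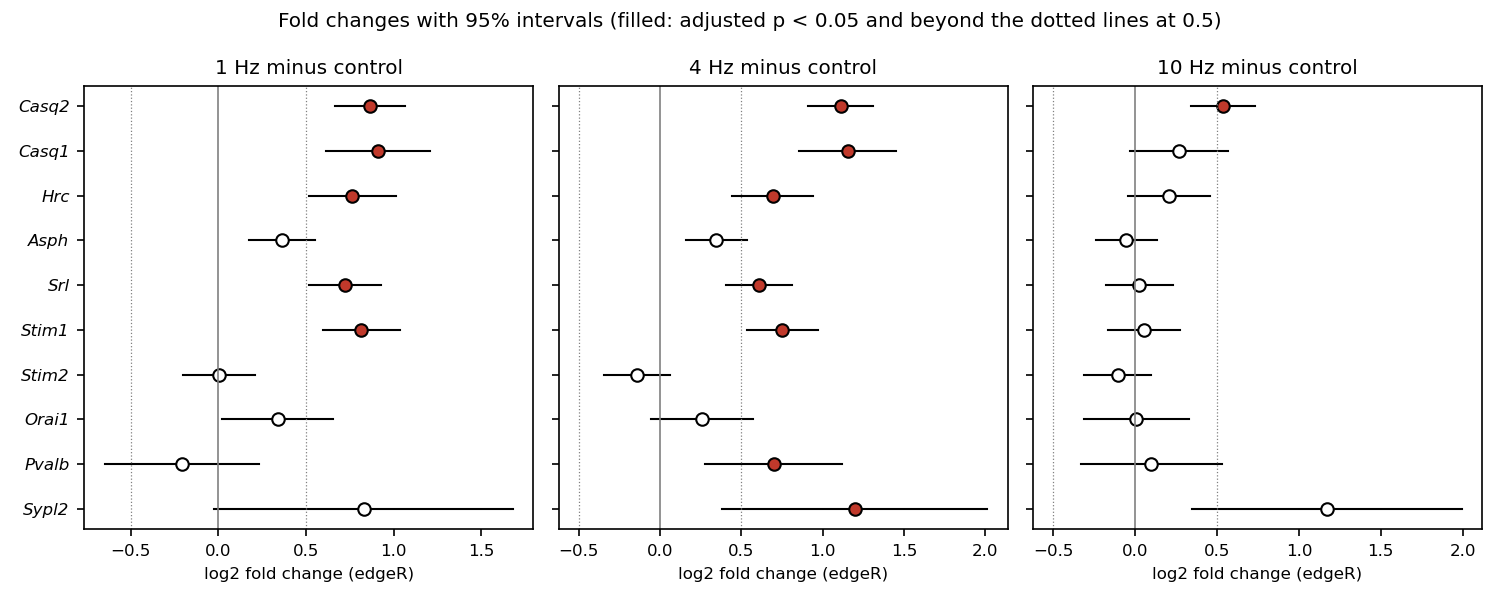
Log2 fold change against control of each of the 10 genes at 1, 4, and 10 Hz (points) with 95% intervals (lines); filled points are called, and dotted lines mark 0.5 on either side of 0. At 1 Hz 5 points are filled, at 4 Hz 7, and at 10 Hz only Casq2, whose value is 0.54, while Sypl2 has the widest intervals.

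Between 4 and 1 Hz only Pvalb was called among the 10 genes, and 10 Hz was lower than 1 or 4 Hz for most genes that had risen. For 4 Hz against 1 Hz, 1 of 10 genes was called higher (1.59% of all genes higher) and 0 lower (1.4% of all genes lower). Casq2 and Casq1 were each 0.24 higher at 4 Hz on the log2 scale, which did not pass (edgeR adjusted p = 0.0946 and 0.281). For 10 Hz against 1 Hz, 4 genes were called lower (8.49% of all genes lower) and 0 higher (9.45% of all genes higher), namely Stim1 at -0.76 (edgeR adjusted p = 7.86e-06), Srl at -0.70 (edgeR adjusted p = 1.22e-05), Casq1 at -0.65 (edgeR adjusted p = 0.00102), and Hrc at -0.56 (edgeR adjusted p = 0.000779). All 10 Hz libraries lay below all 1 Hz libraries for Stim1 and Srl, which 7.49% of all genes did.

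For 10 Hz against 4 Hz, 5 genes were called lower (5.64% of all genes lower) and 0 higher (5.32% of all genes higher). They were Casq1 at -0.89 (edgeR adjusted p = 0.000196), Stim1 at -0.70 (edgeR adjusted p = 0.000117), Pvalb at -0.60, Srl at -0.58 (edgeR adjusted p = 0.000327), and Casq2 at -0.57 (edgeR adjusted p = 0.000259). Hrc at -0.48 passed the adjusted p alone (edgeR adjusted p = 0.00529) and was called without any of 4 Hz replicates 2 to 5 or 10 Hz replicate 6, at -0.58 to -0.51. Asph fell by 0.42 against 1 Hz (edgeR adjusted p = 0.000890) and by 0.40 against 4 Hz (edgeR adjusted p = 0.00305), both under the fold threshold. All 10 Hz libraries lay below all 4 Hz libraries for Casq1, Casq2, Asph, and Stim1, as for 3.54% of all genes.

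Other genes of the same calcium cycle were read from lists, with calls at 1, 4, and 10 Hz against control. For every list below, the shares of all tested genes called higher were 9.34%, 10.5%, and 1.24% in that order. The shares called lower were 8.99%, 9.61%, and 0.623%, and the medians of all tested genes were -0.0072, -0.014, and -0.0064. Of 18 genes of SR release and reuptake, which hold the ryanodine receptors, the dihydropyridine receptor subunits, the junctional proteins, and the calcium pumps with their small regulators, 13 rose at 1 Hz, 14 at 4 Hz, and 1 at 10 Hz, with 0 lower and medians of 0.62, 0.70, and 0.15. At 1 Hz the largest log2 fold changes were those of Mrln, the pump inhibitor myoregulin, at 2.07 (edgeR adjusted p = 2.49e-05) and Cacna1s, the voltage sensor of the tubule membrane, at 0.96. At 4 Hz they were those of Mrln at 2.08 and Sln, the pump inhibitor sarcolipin, at 1.28, and at 10 Hz the 1 called gene was Stac3, which couples the voltage sensor to release, at 0.58 (edgeR adjusted p = 0.0153). The count at 10 Hz was 0 without 10 Hz replicate 6 and 2 without control replicate 3, 10 Hz replicate 2, or 10 Hz replicate 3. The lists were not tested against each other.

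No other store-operated entry gene that was tested was called higher with Stim1. Of 14 listed, 7 were tested, 0 rose at any frequency, and 1 fell at 1 and 4 Hz, with medians of -0.041, -0.16, and -0.14. Of all tested genes, 9.34% and 10.5% were called higher and 8.99% and 9.61% lower at 1 and 4 Hz. For 7 genes, counts of 0 and 1 are near those shares and show nothing particular to this list. The gene that fell was Orai3, a second channel subunit gene, at -0.69 (edgeR adjusted p = 0.00107) and -0.57 (edgeR adjusted p = 0.00344). Saraf, which encodes a protein that closes the channel, was at -0.023 and -0.16 and was not called.

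Of 18 other calcium-binding proteins of the endoplasmic reticulum lumen and cytosol, 14 were tested. At 1 Hz 5 rose and 1 fell, at 4 Hz 6 rose and 0 fell, and at 10 Hz 0 were called, with medians of 0.41, 0.34, and 0.053. The largest rises were those of the lumenal chaperones Hspa5 at 1.20 and 1.55 and Calr at 1.08 and 1.47 for 1 and 4 Hz (edgeR adjusted p from 5.09e-08 to 4.66e-06), and the gene that fell was Sri, which encodes the release channel regulator sorcin, at -0.58. Calb1, Calb2, and Ocm, the genes of other cytosolic buffers, had no count in any library. Among 18 muscle fiber genes 13 rose at 1 Hz, 13 at 4 Hz, and 3 at 10 Hz, with medians of 0.66, 0.85, and 0.25, and at 10 Hz 1 did so without 10 Hz replicate 6.

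**Figure D4:**
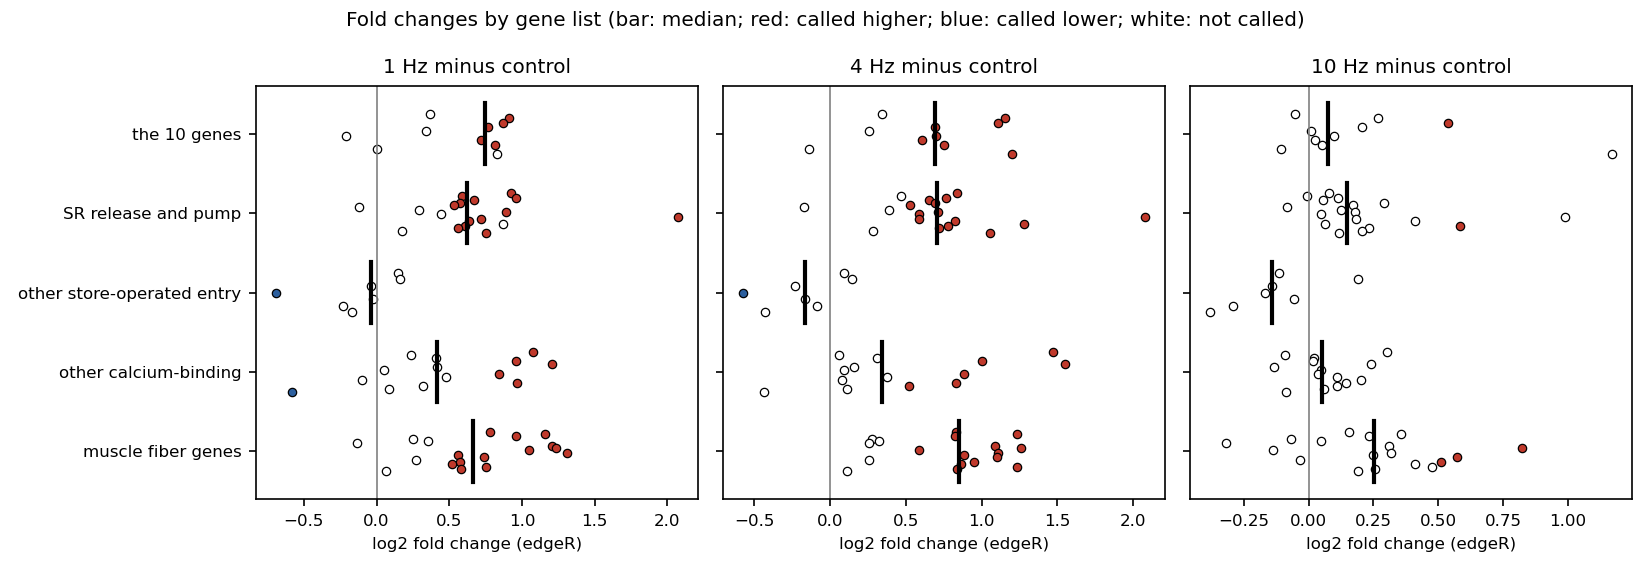
Log2 fold changes against control at 1, 4, and 10 Hz of the tested genes of 5 lists (points; red for called higher, blue for called lower, white for not called), with a bar at the median of each list; the horizontal scales differ between panels. The 10 genes, the SR release and pump genes, and the fiber genes have medians from 0.62 to 0.85 at 1 and 4 Hz, while the other store-operated entry genes lie around 0.

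Because fiber genes moved in the same direction, each of the 10 genes was also set against them, as its log2 CPM minus the mean log2 CPM of the 18 fiber genes in the same library. In bulk tissue a larger share of fibers and more transcript per fiber cannot be told apart, and this measure compares a gene only with other fiber transcripts. At 1 Hz, the differences from control of Casq1 (0.22), Casq2 (0.19), Hrc (0.093), and Srl (0.037) did not pass (exact permutation, adjusted p from 0.153 to 0.777). At 4 Hz Casq1 stood 0.35 above the fiber genes relative to control (exact permutation, adjusted p = 0.0371), and Casq2 0.34 (exact permutation, adjusted p = 0.0568). With the small RNA slope removed, an unplanned variant, Casq1 was at 0.45 (exact permutation, adjusted p = 0.0236) and Casq2 at 0.31 (exact permutation, adjusted p = 0.0382). Stim2 differed from control by -0.67 at 1 Hz and -0.91 at 4 Hz relative to the fiber genes, with no overlap (exact permutation, adjusted p = 0.0216 for each), and from 4 to 10 Hz it differed by 0.58 (exact permutation, adjusted p = 0.0216). At 4 Hz Orai1 stood at -0.52 and Asph at -0.43 relative to control, also without overlap (exact permutation, adjusted p = 0.0216 for each). A gene with no change of its own also falls on this measure when fiber genes rise, whose medians were 0.66 at 1 Hz and 0.85 at 4 Hz. The log2 fold changes of Stim2 (0.0021 and -0.14), and of Orai1 (0.26) and Asph (0.34) at 4 Hz, were below these medians. Their differences here thus carry the fiber rise, and no share of all genes was taken for this measure. Stim1 did not pass against control at any frequency (exact permutation, adjusted p from 0.0999 to 0.789), and 10 Hz differed from 1 Hz by -0.32 (exact permutation, adjusted p = 0.0216). Adjustment was over 10 genes and 6 pairs of conditions.

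The small RNA share and the gene levels did not move together in the same way in every condition. Among the 10 Hz libraries, replicate 6 had the lowest share (38.3 per M) and the highest Casq1, Casq2, Hrc, Asph, Srl, Stim1, and Orai1 values of its group. Replicate 5, with the next lowest share (66.6 per M), was second highest for Casq2, Hrc, Srl, and Stim1, but not for Casq1, Asph, or Orai1. The highest share (273 per M) was that of replicate 2, while Casq1, Hrc, Srl, and Stim1 were lowest in replicate 3 (111 per M). In control the order was reversed for some genes. There replicate 6, with the highest share (168 per M), had the highest Casq2 and Srl. Control replicate 2, with the lowest share (98.2 per M), had the lowest Casq1 and Srl. At 1 Hz the direction was that of the 10 Hz libraries for some genes. Replicate 1, with the highest 1 Hz share (70.6 per M), had the lowest Casq1, Casq2, Srl, and Stim1 of its group, but not the lowest Hrc, Asph, or Orai1. At 4 Hz replicate 3, with the highest share (50.8 per M), had the highest Srl and Asph. No 1 or 4 Hz library had a share as high as any control library. With the log2 share added to the edgeR fit, 0 of 10 genes were called at 1 Hz, 2 at 4 Hz (Casq1 at 1.03, edgeR adjusted p = 0.0172, and Casq2 at 0.86, edgeR adjusted p = 0.00365), and 0 at 10 Hz, where Casq2 was at 0.49 (edgeR adjusted p = 0.00264). At 1 Hz the log2 fold changes were then 0.79 for Casq1, 0.61 for Casq2, 0.54 for Hrc, 0.47 for Srl, and 0.54 for Stim1 (edgeR adjusted p from 0.130 to 0.255). In the same fit 0 of 18 SR release and pump genes were called at 1 or 4 Hz, and 0 of 18 fiber genes at 1 Hz and 7 at 4 Hz. The share of all tested genes called in this fit was not taken, so these counts show nothing particular to the 10 genes. Since the shares of control and of 1 and 4 Hz did not overlap, stimulation and whatever sets this share cannot be told apart for these genes. Pvalb between 4 and 1 Hz, where the shares did overlap, was at 0.91 with the share in the fit (edgeR adjusted p = 0.00433). Pvalb had few counts, and the cause of its difference was not tested.

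**Figure D5:**
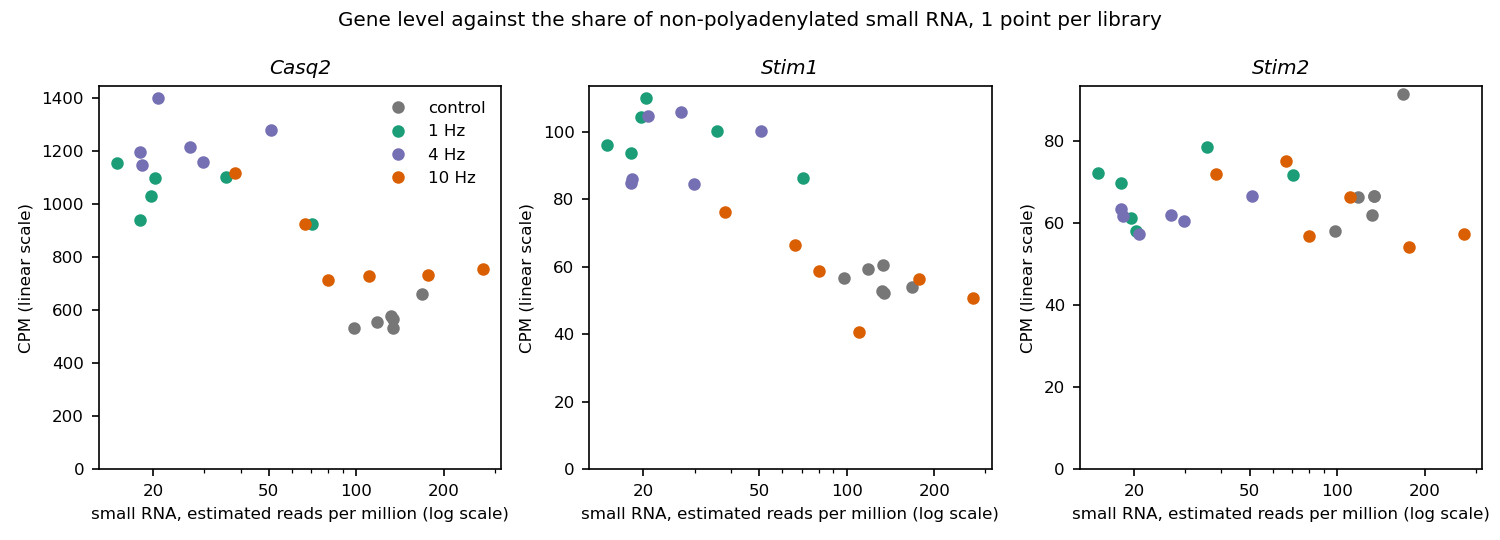
CPM (linear axis from 0) of Casq2, Stim1, and Stim2 against the estimated reads of 27 small RNAs per M (log axis), with 1 point per library colored by condition. Control points lie at 98.2 or more per M and all 1 and 4 Hz points at 70.6 or less, and the 10 Hz point at 38.3 per M has the highest Casq2 and Stim1 of its group.

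Across the 24 libraries, which differ in condition, depth, and small RNA share, Casq1, Casq2, Hrc, Asph, Srl, and Stim1 were positively correlated in every pair. Their Pearson correlations of log2 CPM in pairs (n = 24, given as a description) ranged from 0.66 to 0.95. The value was 0.95 for Srl and Stim1, 0.91 for Hrc and Stim1, 0.91 for Casq1 and Stim1, and 0.90 for Casq1 and Casq2. After subtracting condition means, these 4 were 0.74, 0.71, 0.71, and 0.63, and all pairs of the 6 genes ranged from 0.077 (Hrc and Asph) to 0.91 (Casq2 and Srl). Stim1 and Stim2 had a correlation of 0.0032, and Stim2 reached at most 0.26 with any other of the 10 genes, that with Asph. After subtracting condition means Stim2 reached 0.51 with Casq2, 0.45 with Asph, and 0.44 with Srl.

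The genes most like each one over the same 24 libraries were muscle genes for Casq1 and Hrc, and more mixed for the other SR genes. Casq1 was most like Tpm1 (0.96), Tpm2 (0.96), and Tnnt3 (0.95), genes of the thin filament. Hrc was most like Actn3, Myom2, and Mymk (0.96 to 0.97), and Srl most like the pump gene Atp2a2 (0.98), Nrg1, and Igfbp5. Stim1 was most like Cacna1s (0.96), Atxn10, and Myh8, while Stim2 was most like Hs2st1 (0.81), Pde5a, and Dipk2a. Casq2 was most like C1qtnf3 (0.96), Sgcb, and Armh4, Asph like Hsp90b1 (0.93), Setd3, and Egfr, and Orai1 like Inppl1 (0.92), Thop1, and Rbm38. The closest genes to Pvalb (Arpc5l, Uqcrc2, and Lap3, 0.79 each) and to Sypl2 (Pcyox1, Liph, and Colq, 0.66 to 0.72) were less alike.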

How the data were processed

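RNA-seq was analysed in 24 libraries, 6 per condition, with groups taken from their titles. Library preparation by the authors used poly(A) selection, or ribodepletion for unnamed samples of low input. They sequenced 50-base pairs and processed the reads with nf-core/rnaseq, STAR, and Salmon against GRCm39 and an Ensembl annotation. Its release number is not given in the sources used here. BWA-MEM is also named in the study's methods for mapping, as is bedtools for quality metrics, and the submitters' notes give BWA 0.7.12-r1039 and bedtools 2.25.0. A strand setting for the counting step is likewise not given. What the authors deposited was 1 table of estimated counts per gene, in which 6.62% to 10.6% of the values of a library had a fractional part, and another of TPM as they scaled them.

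Estimated counts were rounded to whole numbers and genes were kept by filterByExpr on condition (13318 genes with 99.8% of all counts). TMM scaling and the quasi-likelihood test were run in edgeR 4.0.16 (limma 3.58.1, R 4.3.3) in 1 model over the 24 libraries that held condition alone, adjusted (Benjamini-Hochberg) over 13318 genes. CPM used unrounded counts. SE was the log2 fold change over the square root of F, and 95% intervals used the t distribution of the fit. Ratios were compared with 2-sided exact permutation tests over libraries. The study's own test was DESeq2 with apeglm, run here as an alternative (1.42.0 and 1.24.0), beside other scalings, filters, limma on log2(TPM + 1) and log2(TPM + 0.1), a replicate number block, the small RNA share as covariate, fits restricted to the groups compared, thinned counts, an adjusted p alone, and each library left out. Fold changes on a log2(TPM + pseudocount) scale understate those of low genes. The comparison with fiber genes and the removal of the small RNA slope from ratios were added after the data were seen.

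All 10 genes were read in every comparison, but values are printed for only some of them in each. From lists, at most the 2 called genes with the largest log2 fold changes each way are named per comparison, and Saraf was chosen after its values were seen. For likeness, the 3 tested genes with the highest correlation are named, passing over predicted genes. The 10 genes and the lists were chosen with earlier results of these data known. Listed marker counts against control at 1, 4, and 10 Hz were 5, 6, and 3 of 8 higher for skeletal muscle; 0, 2, and 0 of 8 for proliferation; 3, 3, and 0 of 6 for myoblasts, with 1 lower at 4 Hz; 2, 2, and 0 of 3 tested for heart (Myh6 and Pln), with 1 lower at 1 Hz; and 1, 0, and 0 of 2 tested for adipocytes and osteoblasts. Of the small RNAs 5 were tested and 3, 2, and 0 were lower, and the ribosomal Rn18s-rs5 was lower at 1 and 4 Hz. Over all tested genes the shares at 1, 4, and 10 Hz were 9.34%, 10.5%, and 1.24% higher and 8.99%, 9.61%, and 0.623% lower.

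Positions are from GENCODE M39. Apart from Asph, overlap with exons of genes on the other strand was at most 291 bases, with at most 5 counts for the other gene (Casq1, Orai1, and Sypl2). On data simulated for 1 Hz against control (13130 genes, 200 changed by a log2 of 1), edgeR recovered 80.5% with 1.23% of calls false, DESeq2 83.0% with 1.19%, and limma (12653 genes) 80.0% with 0.621%. The simulated counts followed edgeR's own fitted spread and held no difference in small RNA share. Far fewer genes changed in them than the 9.34% called higher and 8.99% called lower in the real comparison. These rates therefore check the code and do not give the false calls of the real data. Depth of 4.09 to 15.2 M per library sets the counting error, which is large for Sypl2 and Pvalb. The 60 pairs of libraries within a condition all differed by more than counting noise (chi-square per gene of at least 3.25). The study calls the libraries biological replicates, and the labels tie none to a plate. Protein sequences and the channelrhodopsin transgene were not analysed here.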

Additional observations from a re-analysis of the deposited data

Results flagged for a closer look

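A library stood apart from the other 5 of its condition by Dixon's criterion in 6 of 52 groups tested, where chance alone flags about 1 in 20. Control replicate 6 had the highest Casq2 of its group at 659.5 CPM (others 532 to 579 CPM) and the highest Stim2 at 91.6 CPM (others 58.0 to 66.7 CPM). Control replicate 4 had the highest Orai1 of control at 27.1 CPM (others 17.4 to 20.9 CPM), and 4 Hz replicate 6 the highest Orai1 at 4 Hz, 32.7 CPM (others 21.6 to 24.7 CPM). Sypl2 was highest in 4 Hz replicate 1 at 2.71 CPM (others 0.820 to 1.44 CPM). The log2 summed TPM of Casq1, Casq2, Hrc, Asph, and Srl was lowest at 1 Hz in replicate 1, at 10.16 (others 10.39 to 10.46), the 1 Hz library that also had the highest small RNA share of its group at 70.6 per M.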

How the results depend on the processing

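Of 60 log2 fold changes (10 genes, 6 comparisons), 23 were called, and no called one changed direction under any alternative run. All 23 calls held without a low-count filter, with DESeq2, with total-count scaling or the size factors of DESeq2, and with the replicate block. An adjusted p alone keeps them by construction, since it only drops the fold threshold. With apeglm 22 were kept, as with a minimum mean of 5 CPM or only the 12 libraries compared (Sypl2 was then not tested at 4 Hz). Thinned counts kept 21, limma on TPM 18 or 19, and the small RNA share as a covariate 4. Limma called 3 genes for 10 Hz against 4 Hz in each of its 3 forms and, without a filter, 4 for 4 Hz against control. The median of all genes at 4 Hz was -0.014, against -0.11 with scaling by total count and -0.16 on the log2(TPM + 1) scale. With the small RNA share as a covariate the counts were 0 at 1 Hz, 2 at 4 Hz, 0 at 10 Hz, 1 for 10 Hz against 1 Hz, and 0 for 10 Hz against 4 Hz. The share of all genes called in that fit was not taken. Without 10 Hz replicate 6 the count for 10 Hz against control was 0, so that over single libraries left out it ranged from 0 to 1.

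Directions that reversed belonged to uncalled genes. For Stim2 at 1 Hz they were -0.072 (total count), -0.020 (minimum CPM), -0.085, -0.087, and -0.085 (limma with pseudocount 1, with 0.1, and without filter), -0.080 (thinned), and -0.024 (covariate), with -0.036 to 0.10 over libraries left out. At 10 Hz Srl was at -0.0074 (total count), -0.062 (limma, all forms), -0.0012 (thinned), and -0.021 (covariate), with -0.068 to 0.074 over libraries left out. Stim1 was at -0.052, -0.056, and -0.052 (limma), with -0.040 to 0.14, and Orai1 at -0.027 (total count), -0.088, -0.094, and -0.088 (limma), -0.014 (replicate block), and -0.067 (covariate), with -0.095 to 0.10. The covariate also turned Pvalb from -0.21 to 0.046 and Orai1 from 0.34 to -0.089 at 1 Hz, Orai1 from 0.26 to -0.16 at 4 Hz and from -0.33 to 0.023 for 10 Hz against 1 Hz, and, for 10 Hz against 4 Hz, Orai1 from -0.25 to 0.093 and Sypl2 from -0.028 to 0.20. For that pair Stim2 was at -0.0021, -0.0023, and -0.0021 (limma), with -0.016 to 0.074 over libraries left out, and Sypl2 at 0.033 (total count) and 0.031 (limma without filter), with -0.26 to 0.25. For 4 Hz against 1 Hz Asph was at 0.0032 (minimum CPM) and 0.054 (thinned), with -0.068 to 0.030, and Orai1 ranged from -0.17 to 0.0063.

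From CPM in place of TPM the log2 Casq1 to Casq2 ratio differed from control by 0.029 at 1 Hz and 0.013 at 4 Hz, both reversed and neither past the threshold, and by -0.27 at 10 Hz, with -0.30 for 10 Hz against 1 Hz (exact permutation, adjusted p = 0.0602 for both). The log2 Stim1 to Stim2 ratio then passed at -0.67 for 10 Hz against 1 Hz and -0.75 for 10 Hz against 4 Hz (exact permutation, adjusted p = 0.00557). With the small RNA slope removed, the Casq1 to Casq2 ratio passed for 10 Hz against 4 Hz at -0.38, Stim1 to Stim2 at 4 Hz fell short at 0.60, and, against the fiber genes, Asph was at -0.011 for 10 Hz against 1 Hz and Pvalb at 0.45 at 4 Hz, both reversed. Relative to the fiber genes 10 differences then passed that had not (exact permutation, adjusted p = 0.0382 or 0.0236), namely Casq2 at 0.31 and 0.30 and Srl at -0.20 and -0.21 for 4 and 10 Hz against control, Orai1 at -0.56 for 1 Hz against control, 0.30 for 10 Hz against 1 Hz, and 0.47 for 10 Hz against 4 Hz, Casq1 at -0.41 and Pvalb at -0.47 for 10 Hz against 4 Hz, and Pvalb at 0.84 for 4 Hz against 1 Hz. Over libraries left out, Casq1 to Casq2 ranged from -0.42 to -0.28 for 10 Hz against 1 Hz and from -0.34 to -0.21 for 10 Hz against 4 Hz, and Stim1 to Stim2 from -0.078 to 0.16 for 4 Hz against 1 Hz. The cause of these changes was not tested.

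The labels number replicates alike in each group. Same-numbered libraries did not deviate together (median correlation 0.017 over 36 pairs, 10 of them above 0.1), so the numbers were not taken to pair the samples. With the replicate block in edgeR, the counts stayed at 5, 7, 1, 1, 4, and 5. In an exact sign-flip permutation test over the 6 numbers, which few pairs limit, the lowest adjusted p was 0.0703, and under this replicate block no ratio passed: Casq1 to Casq2 at -0.48 and -0.35 for 10 Hz against control and 1 Hz, Stim1 to Stim2 at 0.90 and 0.94 for 1 and 4 Hz against control, and the summed TPM at 0.83, 0.89, and 0.38 against control and -0.45 and -0.51 for 10 Hz against 1 and 4 Hz. Depth limits Sypl2 (1 to 20 counts) and Pvalb (29 to 163 counts).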
